A study of Mus musculus with 16 samples.

Results

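Interferon signaling in B16F10 tumors was described through 9 genes chosen by name from the deposited gene table of 45777 genes. These were the receptor genes Ifnar1, Ifnar2 and Ifngr1, the transcription factor genes Stat2, Irf9, Irf7, Irf1 and Irf8, and the inhibitor gene Socs1. All 9 were found, and all 9 were among the 16209 genes that had at least 1 read in every tumor and were tested. B16F10, a melanoma cell line of C57BL/6 origin, had been injected under the skin of 6-week-old C57BL/6J mice (lean) and of leptin-deficient C57BL/6J-ob/ob mice (obese). RNA of whole tumors was sequenced either before or after chemotherapy with etoposide (ETS), which poisons topoisomerase II. ETS was given as 5 daily intraperitoneal injections of 20 mg per kg body weight, with tumors taken the day after the course. The titles call the tumors before therapy controls, and whether these had received a vehicle is not stated. Each of the 4 groups (lean before therapy, lean after ETS, obese before therapy, obese after ETS) held 4 tumors. All tumors grew from the same cell line, and the hosts differed in the ob allele, which was carried in every tissue of the obese mice. No tumors known to be vehicle-treated and collected on the same days as the ETS-treated ones were analysed here, so that ETS and further days of growth cannot be told apart.

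As background, type I interferons bind a receptor built from Ifnar1 and Ifnar2, and the kinases Jak1 and Tyk2 then activate a complex that holds Stat2 and Irf9 and binds the interferon-stimulated response element of target genes. Interferon gamma, made mainly by T cells and natural killer (NK) cells, binds a receptor built from Ifngr1 and Ifngr2, and signals through Jak1 and Jak2 to genes that hold the gamma-activated sequence. Irf7 drives the production of type I interferon, Irf1 is induced quickly by interferon gamma, Irf8 is both an interferon gamma target and a lineage factor of macrophages and dendritic cells, and Socs1 shuts the receptors' kinases off. In tumors this pathway is known for antigen presentation and for the recruitment of T cells.

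Total counts per tumor lay between 47199949 and 61655287. Values are CPM, read counts scaled by the TMM library size, unless stated otherwise, tests are edgeR's quasi-likelihood tests on all 16 tumors, and a gene was called at an adjusted p under 0.05 over all 16209 genes (Benjamini-Hochberg). The summed CPM of 7 melanocyte markers (Mitf, Tyr, Tyrp1, Dct, Pmel, Mlana and Sox10) lay between 10692 and 26070 in every tumor, as the label of the cell line would have it. This sum moved with the groups, from 18067 to 22652 in lean tumors before therapy, from 22777 to 26070 in lean tumors after ETS, from 11168 to 15086 in obese tumors before therapy and, once treated with ETS, from 10692 to 25092 in them. Before therapy the hosts did not overlap, and 3 of the 7 markers were called lower in obese tumors, where 12.9% of all tested genes were. The part of this difference in the results was not tested. Whole tumors also hold host cells, and in such samples fewer cells of a type and less RNA per cell cannot be told apart. The balance of directions over all genes moved with the scaling. Of the genes called in lean tumors after ETS, 3410 of 7099 were higher with TMM, against 1351 of 8632 with limma on log2(TPM + 1), where TPM is the deposited level per transcript length, scaled to the same total in every tumor. For the difference between the hosts' ETS effects, 1630 of 2660 called genes were positive with TMM and 2239 of 2467 with TPM. Between obese and lean tumors before therapy the numbers were 2181 of 4280 and 1127 of 3892, and after ETS they were 531 of 904 and 663 of 791.

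To see how the pathway stood in each host, the 9 genes were first read in every tumor. Lean tumors before therapy had the highest mean of all groups for every member. The plot of CPM by tumor shows the 36 group values of the 9 genes.

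**Figure D1:**
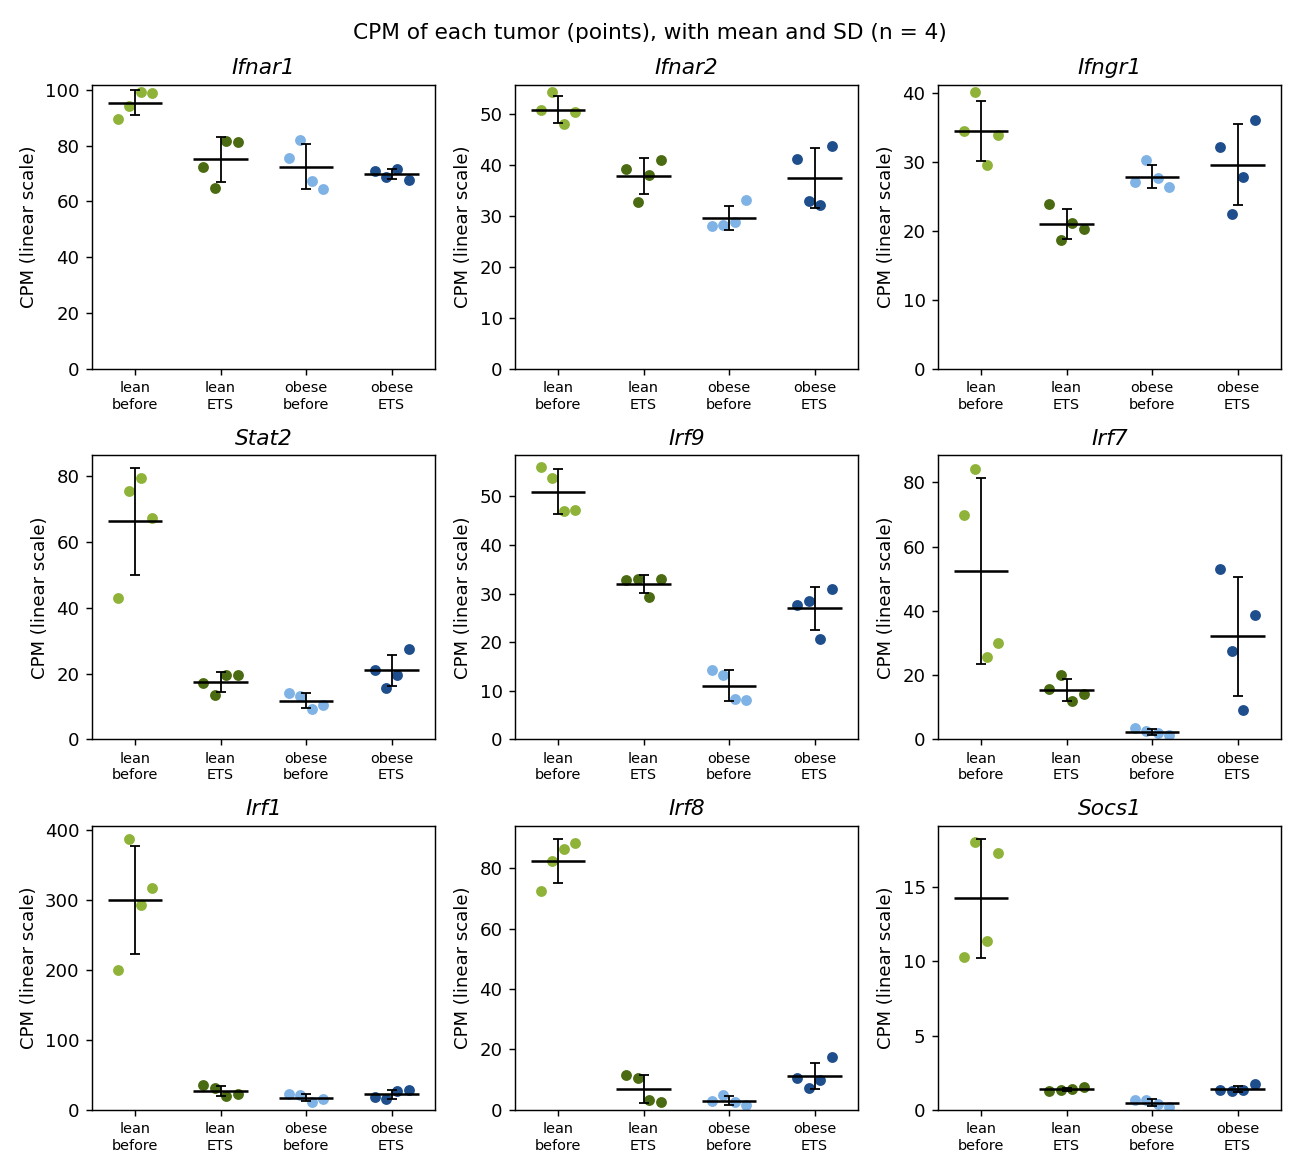
CPM of the 9 genes (y axis, linear scale, from 0) in each of the 4 groups (x axis). Points are tumors, horizontal lines are means and bars are SD (n = 4 tumors). For Irf1, Irf8 and Socs1 the lean tumors before therapy stand far above the other 12 tumors. For Stat2, Irf9, Ifnar1 and Ifnar2 they also lie above those 12, by less. Irf7 and Irf9 are lowest in obese tumors before therapy.

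In lean tumors all 9 members were lower after ETS, and in obese tumors 6 were higher and none was lower. Among all tested genes, 22.8% were called lower in lean tumors and 21.2% were called higher in obese tumors. The median log2 fold change of the 9 members was -1.77 in lean and 0.84 in obese tumors, against medians of -0.015 and 0.0066 over all tested genes. In lean tumors the 4 tumors after ETS lay below the 4 before therapy for all 9 members, where 20.3% of all genes did so, and in obese tumors the tumors after ETS lay above for 5 members, where 16.4% of all genes did so. The members are counted with earlier results on interferon response genes in these tumors known, and their counts are not independent of that knowledge.

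Of the receptor genes, Ifnar1 (gene ID 15975, GRCm38.p6 chromosome 16 from 91485032 to 91510523, plus strand), the low-affinity chain of the type I receptor, was at 89.7, 94.1, 99.2 and 99.0 CPM in the lean tumors before therapy and at 72.5, 65.0, 81.7 and 81.4 CPM after ETS. The groups did not overlap, and the level fell by 0.35 on the log2 scale (standard error 0.088, adjusted p = 0.00583, edgeR). In obese tumors it was at 75.7, 82.2, 67.5 and 64.5 CPM before therapy and at 70.9, 68.6, 71.8 and 67.8 CPM after ETS. These groups overlapped, and the log2 difference of -0.054 (95% interval -0.24 to 0.13) was not called (adjusted p = 0.658, edgeR).

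Ifnar2 (gene ID 15976, chromosome 16 from 91372783 to 91405589, plus strand, overlapped on the same strand by the annotated gene Gm21970), the high-affinity chain, was at 50.7, 54.3, 48.0 and 50.3 CPM in lean tumors before therapy and at 39.3, 32.8, 38.1 and 41.0 CPM after ETS. It fell by 0.43 on the log2 scale (standard error 0.11, adjusted p = 0.00489, edgeR), with no overlap. In obese tumors the 28.1, 28.2, 28.7 and 33.0 CPM before therapy were followed by 41.2, 32.9, 32.05 and 43.6 CPM after ETS. The obese groups overlapped by the highest tumor before therapy, and the rise of 0.34 (standard error 0.11) was called (adjusted p = 0.0188, edgeR). That call was lost without obese tumor 1 after ETS (adjusted p = 0.0634) and without obese tumor 4 after ETS (adjusted p = 0.0635, edgeR), and also with TPM, without a filter on low counts, with the exact test and with only the obese tumors in the fit (adjusted p from 0.0533 to 0.121). Whether counting used strand is not given in the sources used here, and reads shared with an overlapping gene cannot be told apart here or for Irf1 and Irf8.

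Ifngr1 (gene ID 15979, chromosome 10 from 19591949 to 19610229, plus strand), the ligand-binding chain of the interferon gamma receptor, was at 34.5, 40.1, 29.5 and 33.9 CPM in lean tumors before therapy and at 23.8, 18.7, 21.2 and 20.3 CPM after ETS. It fell by 0.72 on the log2 scale (standard error 0.13, adjusted p = 0.000685, edgeR), and no tumor overlapped. The obese tumors held 27.1, 30.3, 27.7 and 26.4 CPM before therapy and 32.2, 22.4, 27.7 and 36.0 CPM after ETS, with an adjusted p of 0.632 for a log2 difference of 0.087 (edgeR, 95% interval -0.19 to 0.37). The obese tumors after ETS enclosed the whole range of those before therapy.

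Stat2 and Irf9, the partners of the type I interferon complex, moved in opposite directions in the hosts. Stat2 (gene ID 20847, chromosome 10 from 128270498 to 128292853, plus strand) was at 43.1, 75.6, 79.5 and 67.3 CPM in lean tumors before therapy and at 17.1, 13.4, 19.7 and 19.7 CPM after ETS, 3.80-fold lower (log2 fold change -1.93, standard error 0.21, adjusted p = 1.32e-05, edgeR). Its level in obese tumors rose from 14.1, 13.2, 9.24 and 10.4 CPM to 21.0, 15.7, 19.7 and 27.4 CPM (log2 fold change 0.84, standard error 0.21, adjusted p = 0.00566, edgeR). In neither host did the tumors overlap, but with limma on log2(TPM + 1) the obese rise of 0.64 was not called (adjusted p = 0.059).

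Irf9 (gene ID 16391, chromosome 14 from 55603985 to 55610030, plus strand), the DNA-binding part of that complex, was at 56.0, 53.7, 46.9 and 47.3 CPM in lean tumors before therapy and at 32.8, 32.9, 29.2 and 32.9 CPM after ETS (log2 fold change -0.67, standard error 0.17, adjusted p = 0.00503, edgeR). The obese tumors went from 14.2, 13.3, 8.34 and 8.18 CPM to 27.6, 28.5, 20.7 and 31.0 CPM, 2.45-fold higher (log2 fold change 1.29, standard error 0.17, adjusted p = 8.32e-05, edgeR). In neither host did the tumors overlap, while the lean and obese tumors after ETS overlapped with each other.

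Irf7 (gene ID 54123, chromosome 7 from 141263183 to 141266499, minus strand) had the largest rise of the members in obese tumors. It was at 3.41, 2.61, 2.08 and 1.18 CPM before therapy and at 53.0, 27.5, 9.13 and 38.6 CPM after ETS, a 13.9-fold rise (log2 fold change 3.79, standard error 0.52, adjusted p = 0.00011, edgeR). All obese tumors after ETS lay above those before therapy, although tumor 1 held 5.80 times as much as tumor 3. With log2(TPM + 1) the rise was 3.07 on the log2 scale. Only 19 of the other tested genes had a larger fitted rise in obese tumors. In lean tumors Irf7 was at 69.8, 84.3, 25.7 and 30.1 CPM before therapy and at 15.6, 20.04, 12.01 and 14.01 CPM after ETS (log2 fold change -1.77, standard error 0.47, adjusted p = 0.00745, edgeR). The lean tumors before therapy fell into a higher and a lower pair, and both pairs lay above the tumors after ETS.

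Irf1, Irf8 and Socs1 had the largest falls of the members in lean tumors. Irf1 (gene ID 16362, chromosome 11 from 53770014 to 53778374, plus strand, overlapped on the other strand by the annotated gene Gm17334) was at 200.3, 387, 293 and 318 CPM in lean tumors before therapy and at 35.4, 30.9, 19.7 and 23.2 CPM after ETS. It was 10.98-fold lower (log2 fold change -3.46, standard error 0.28, adjusted p = 1.47e-06, edgeR), and 87 genes had a larger fitted fall. The obese tumors held 22.2, 20.6, 10.9 and 15.3 CPM before therapy and 18.8, 15.1, 26.9 and 27.7 CPM after ETS, with a log2 difference of 0.36 (95% interval -0.20 to 0.92, adjusted p = 0.294, edgeR). The obese groups overlapped, and the lean tumors before therapy held more than any of the 12 other tumors.

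Irf8 (gene ID 15900, chromosome 8 from 120736358 to 120756694, plus strand, overlapped on the same strand by the annotated gene Gm20388) went from 72.4, 82.4, 86.5 and 88.6 CPM to 11.4, 10.4, 3.38 and 2.49 CPM in lean tumors. This was an 11.9-fold fall (log2 fold change -3.58, standard error 0.46, adjusted p = 4.49e-05, edgeR). In obese tumors it rose from 2.81, 4.95, 2.66 and 1.54 CPM to 10.5, 7.25, 9.86 and 17.4 CPM (log2 fold change 1.92, standard error 0.45, adjusted p = 0.00386, edgeR). In neither host did the groups overlap, and all obese tumors after ETS stayed below the lowest lean tumor before therapy.

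Socs1 (gene ID 12703, chromosome 16 from 10783808 to 10785536, minus strand) was at 10.3, 18.0, 11.3 and 17.3 CPM in lean tumors before therapy and at 1.25, 1.32, 1.38 and 1.52 CPM after ETS, 10.4-fold lower (log2 fold change -3.38, standard error 0.32, adjusted p = 4.75e-06, edgeR). In obese tumors it was at 0.641, 0.678, 0.419 and 0.159 CPM before therapy and at 1.36, 1.28, 1.35 and 1.72 CPM after ETS, a 3.03-fold rise (standard error 0.33, adjusted p = 0.00162, edgeR). With log2(TPM + 1) the rise was 0.85 on the log2 scale. The lowest count behind these values was 9 reads, so the low tumors are the least precise of the 9 genes. After ETS the tumors of the hosts overlapped, between 1.25 and 1.72 CPM.

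**Figure D2:**
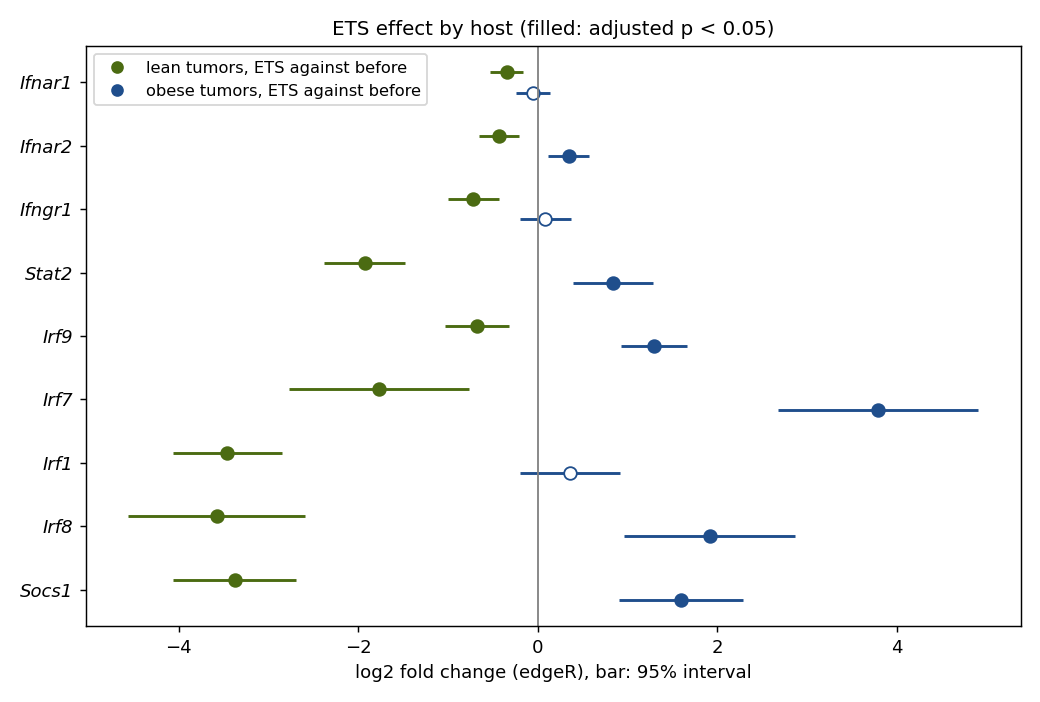
Log2 fold change of each gene after ETS against before therapy (x axis) in lean and obese tumors, for the 9 genes (y axis). Points are edgeR estimates from 4 against 4 tumors, bars are 95% intervals, and filled points have an adjusted p under 0.05. All 9 lean points lie below 0, and the obese points lie above 0 except Ifnar1 at -0.054.

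The difference between the ETS effects was tested as an interaction, obese minus lean. It was positive for all 9 members and called for 8, where 10.1% of all genes were called with a positive difference. The largest were Irf7 at 5.56 on the log2 scale (standard error 0.70, adjusted p = 0.000107, edgeR), Irf8 at 5.49 (standard error 0.64, adjusted p = 5.64e-05) and Socs1 at 4.97 (standard error 0.45, adjusted p = 1.07e-05). With log2(TPM + 1) that of Socs1 was 4.001 and still called. Irf1 followed at 3.81 (95% interval 3.01 to 4.62), Stat2 at 2.76 (2.13 to 3.39) and Irf9 at 1.97 (1.46 to 2.48). For the receptor genes the differences were smaller, at 0.80 for Ifngr1 (adjusted p = 0.00839, edgeR), 0.77 for Ifnar2 (adjusted p = 0.00265) and 0.29 for Ifnar1 (95% interval 0.026 to 0.56, adjusted p = 0.127). The 6 factor and inhibitor genes thus had intervals that lay wholly above those of the 3 receptor genes.

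To see in which state the hosts differed, obese and lean tumors were compared before therapy and after ETS. These comparisons share their tumors with the ETS comparisons and are not independent of them. Before therapy 8 of the 9 members were lower in obese tumors, where 12.9% of all genes were called lower, and for the same number the groups did not overlap, where 14.4% of all genes lay apart in this direction. The fold differences were 30.1 for Socs1 (log2 -4.91, standard error 0.35), 27.7 for Irf8 (log2 -4.79, standard error 0.49), 22.7 for Irf7 (log2 -4.50, standard error 0.54) and 17.4 for Irf1 (log2 -4.12, standard error 0.29). Their adjusted p-values were 2.91e-07 for Socs1 and Irf1, 7.29e-06 for Irf8 and 2.9e-05 for Irf7 in edgeR's test. With log2(TPM + 1) the difference for Socs1 was -3.86. Stat2 was 5.66-fold lower (adjusted p = 1.26e-06) and Irf9 4.64-fold lower (adjusted p = 5.33e-07). Ifnar2 was lower by a log2 difference of -0.79 (adjusted p = 9.24e-05) and Ifnar1 by one of -0.40 (adjusted p = 0.00393). Ifngr1, with a log2 difference of -0.31 (95% interval -0.59 to -0.028), was not called (adjusted p = 0.0983, edgeR).

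After ETS 1 of the 9 members was called, Ifngr1, where 3.28% of all genes were called higher in obese tumors. Its level was higher in obese tumors by 0.49 on the log2 scale (standard error 0.13, adjusted p = 0.0428, edgeR), but the tumors of the hosts overlapped. The call was lost with any of the lean tumors after ETS left out (adjusted p from 0.0513 to 0.102, highest without tumor 4) and without obese tumor 1, 3 or 4 after ETS (0.0529 to 0.144, highest without tumor 4). It was also lost without lean tumor 4 before therapy or any obese tumor before therapy, where the adjusted p lay between 0.0505 and 0.0563 in edgeR's test. For no member did the obese tumors after ETS all lie above the lean ones, where 6.39% of all genes did so. Of the other 8, Irf7 had the largest difference, 1.06 on the log2 scale (95% interval 0.071 to 2.04, unadjusted p = 0.0373, adjusted p = 0.171, edgeR). The intervals ran from -0.86 to 0.25 for Irf1, from -0.59 to 0.71 for Socs1, from -0.18 to 0.70 for Stat2 and from -0.60 to 0.11 for Irf9. They left room for differences of up to 1.61 on the log2 scale for Irf8.

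**Figure D3:**
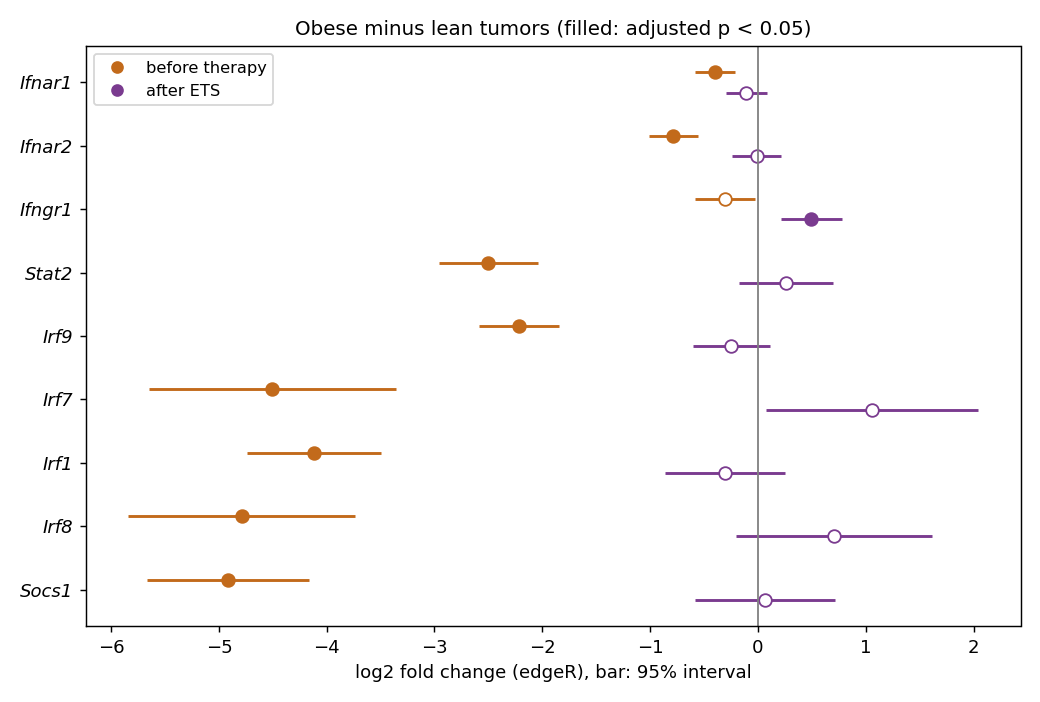
Log2 difference of obese minus lean tumors (x axis) before therapy and after ETS, for the 9 genes (y axis). Points are edgeR estimates from 4 against 4 tumors, bars are 95% intervals, and filled points have an adjusted p under 0.05. Before therapy the points reach -4.91, and after ETS they lie between -0.30 and 1.06.

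Levels between genes were compared per length, in TPM. In lean tumors before therapy Irf1 had the highest level of the 9, at 292 ± 88.1 TPM (SD, n = 4), followed by Irf8 at 62.4 ± 9.78 TPM and Irf7 at 61.3 ± 32.8 TPM. All lean tumors had more Irf1 than any had Irf8, whereas Irf8 overlapped with Irf7 and Irf7 with Ifnar2 (55.0 TPM). In obese tumors before therapy the 3 receptor genes headed the order, with Ifnar2 at 31.5 ± 1.08 TPM, Ifngr1 at 25.9 ± 2.38 TPM and Ifnar1 at 25.5 ± 3.30 TPM, of which Ifngr1 and Ifnar1 overlapped. Irf1 came next at 15.5 ± 4.75 TPM, and Irf7, Irf8 and Socs1 lay at 2.50, 2.04 and 0.748 TPM. After ETS Ifnar2 was highest in both hosts, at 36.3 ± 7.89 TPM in lean and 40.02 ± 9.29 TPM in obese tumors, and Socs1 was lowest in all 4 groups. Irf7 was in sixth place in lean tumors after ETS (13.9 ± 1.76 TPM) and in second place in obese tumors (31.5 ± 16.8 TPM), where it overlapped with its neighbors Ifnar2 and Ifngr1.

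Within a tumor, the ratios of members to each other also differed between the groups. The TPM of Irf9 over that of Stat2 was 1.07 to 2.34 in the lean tumors before therapy and 2.68 to 4.47 after ETS, with no overlap. In obese tumors it ranged from 1.43 to 1.82 before therapy and from 1.94 to 3.26 after ETS, again without overlap. So Stat2 transcripts were fewer for each Irf9 transcript after ETS in both hosts. The ratio of Irf7 to Irf9 was between 0.193 and 0.329 in obese tumors before therapy and between 0.592 and 2.63 after ETS. The ratio of Ifnar1 to Ifnar2 lay between 0.446 and 0.927 over all 16 tumors. These ratios were chosen after the values were seen and are given without a test.

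The genes whose profile was most like that of a member were found by the root mean square difference of log2 CPM, each gene centered on its mean over the 16 tumors. For Irf7 these were Rtp4 (0.44), Usp18 (0.57) and Dhx58 (0.61), against a median of 1.84 over all other genes. For Stat2 they were Dtx3l (0.20), Nod1 (0.28) and Trafd1 (0.31), and for Irf9 Pdgfd (0.25), Samd9l (0.26) and Tmem173 (0.28). For Irf1 they were H2-Q4 (0.33), Tnfrsf14 (0.43) and Tlr12 (0.43), for Irf8 H2-M3 (0.32), 9930111J21Rik1 (0.43) and Hk3 (0.46), and for Socs1 Irgm1 (0.45), Tnfrsf14 (0.45) and Parp14 (0.46). The receptor genes lay nearest to genes of small variation, Ifnar1 to 2900097C17Rik (0.099), Wdr11 (0.10) and Stat5b (0.11), Ifnar2 to Rnf114 (0.13), Armc7 (0.14) and Daxx (0.16), and Ifngr1 to Dse (0.15), Lrrc8c (0.18) and Etv3 (0.18). The median over all other genes was 0.41 for Ifnar1, 0.48 for Ifnar2 and 0.47 for Ifngr1, against 0.94 to 1.95 for the factor and inhibitor genes. Among the members themselves, Irf1 and Socs1 were nearest to each other (0.64), as were Stat2 and Irf9 (0.56) and Ifnar1 and Ifnar2 (0.23). Many other genes lay nearer, with Ifnar2 in place 1493 of 16208 for Ifnar1 and Irf9 in place 123 for Stat2. For Ifnar1 the 0.23 was also larger than its own spread around its mean (0.21). Members and neighbors come from the same 16 libraries, and the differences are descriptions.

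Since 8 members had differing ETS effects in the hosts, the 250 bases before the annotated starts of the members were searched for the sites of the 2 interferon signals. Promoter sequences were those of RefSeq for GRCm38.p6, with 12 starts for the 9 genes. The starts used for Ifnar1 and Irf7 lay inside the gene coordinates given above. Their windows, chr16:91484965-91485214 and chr7:141266425-141266674, therefore partly covered the gene. The second starts of Irf9, Irf1 and Irf8 also lay inside the gene. The letters GAAANNGAA, a core of the interferon-stimulated response element, and TTCNNNGAA, the gamma-activated sequence, were searched on both strands. Over 32851 such windows of all genes, 7.13% held the former and 7.02% the latter. Of the 12 windows, 5 held a match, with the gamma-activated sequence in those of Ifnar2 and of the first start of Irf1 and of Irf8, and the response element in those of Stat2 and Socs1, and no window held both, as 0.752% of all windows did. The windows of the 4 factor and inhibitor genes with a match are printed here 5′ to 3′ along the gene, with the matched letters in capitals, because their ETS effects differed between the hosts.
Irf1, chr11:53769764-53770013, plus strand: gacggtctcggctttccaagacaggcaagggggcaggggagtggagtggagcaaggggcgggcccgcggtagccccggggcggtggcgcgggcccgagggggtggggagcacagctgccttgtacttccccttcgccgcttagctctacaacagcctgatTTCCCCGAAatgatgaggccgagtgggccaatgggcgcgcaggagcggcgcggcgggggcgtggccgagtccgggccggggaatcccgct
Irf8, chr8:120736108-120736357, plus strand: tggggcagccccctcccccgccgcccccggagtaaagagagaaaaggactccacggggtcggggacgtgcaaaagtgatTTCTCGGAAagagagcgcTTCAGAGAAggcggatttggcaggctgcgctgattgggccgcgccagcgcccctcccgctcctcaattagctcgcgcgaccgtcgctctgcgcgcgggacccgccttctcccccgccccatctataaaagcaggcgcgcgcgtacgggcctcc
Socs1, chr16:10785537-10785786, minus strand: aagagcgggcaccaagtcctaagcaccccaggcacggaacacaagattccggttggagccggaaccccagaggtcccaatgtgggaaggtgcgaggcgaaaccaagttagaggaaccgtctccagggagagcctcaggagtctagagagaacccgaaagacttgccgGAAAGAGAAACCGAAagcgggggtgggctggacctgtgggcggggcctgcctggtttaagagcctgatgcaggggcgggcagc
Stat2, chr10:128270248-128270497, plus strand: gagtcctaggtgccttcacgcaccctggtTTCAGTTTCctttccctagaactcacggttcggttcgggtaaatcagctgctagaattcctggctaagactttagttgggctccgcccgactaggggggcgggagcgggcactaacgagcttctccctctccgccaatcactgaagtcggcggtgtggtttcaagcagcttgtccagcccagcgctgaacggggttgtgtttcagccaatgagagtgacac
The Irf1 match began 90 bases before the start, and the Irf8 matches began 171 and 153 bases before it, separated by 9 bases. The Socs1 matches, 83 and 77 bases before the start, overlapped each other by 3 bases. The Stat2 match lay on the reverse strand, 221 bases before the start. In Ifnar2 the match, shown with its flanks, was tgccaaggccTTCCTGGAAgaagagagta at chr16:91372569-91372577. A match of letters is a description of the sequence and not a bound site, and the windows of the second start of Irf1 and of Irf8 and those of Irf7, Irf9, Ifngr1 and Ifnar1 held neither set of letters.

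The other genes of the pathway were counted from lists compiled by hand with results on these tumors known. Of 42 genes other than ligands, 40 were tested. In lean tumors 14 of the 40 (35%) were lower and 2 (5%) higher after ETS, where 22.8% and 21.0% of all tested genes were. In obese tumors 15 (37.5%) were higher and 4 (10%) lower, against 21.2% and 19.0% of all genes. The interaction was called for 14 (35%), each with a positive difference, where 10.1% of all genes had a positive and 6.35% a negative one. Before therapy 23 (57.5%) were lower and 2 (5%) higher in obese tumors, against 12.9% and 13.5% of all genes. After ETS 3 (7.5%) were lower and 1 (2.5%) was higher in obese tumors, against 2.30% and 3.28%. The median difference between the ETS effects was 0.35 over these 40 genes, against 2.76 for the 9 members and -0.052 for all genes.

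Among the kinases, Jak2, which serves the interferon gamma receptor, fell by 0.72 on the log2 scale in lean tumors (standard error 0.093, adjusted p = 4.63e-05, edgeR) and had a log2 difference of 0.017 in obese tumors (adjusted p = 0.908). Jak1, shared by both receptors, had an interaction of 0.45 (adjusted p = 0.0378, edgeR). Ifngr2, the signaling chain beside Ifngr1, was not called in lean tumors (log2 difference 0.21, adjusted p = 0.101) or obese tumors (0.26, adjusted p = 0.0522), and neither was its interaction of 0.048 (adjusted p = 0.861, edgeR). Il10rb, a chain shared with the interferon lambda receptor, had an interaction of 0.017 (adjusted p = 0.976). Of the 3 tested genes on this list of other receptors, none had a called interaction, where 16.4% of all genes did.

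Stat3, the main factor of interleukin 6 signaling, had an interaction of 0.49 that was not called (adjusted p = 0.0871, edgeR). Of the other Irf genes, 3 of 4 tested had a called interaction, all positive, where 10.1% of all genes had a positive one. Irf5, a factor of myeloid cells, was at 5.001 (standard error 0.73, adjusted p = 0.000311) and Irf2, which competes with Irf1 for sites, at 0.90 (standard error 0.17, adjusted p = 0.00215, edgeR).

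Of 16 other inhibitors, 3 (18.75%) had a called interaction, all positive, which is close to the 16.4% of all genes called in either direction and above the 10.1% called positive. Usp18, which blocks the Ifnar2 chain, rose in obese tumors from 1.16 ± 0.50 to 11.6 ± 5.77 CPM (log2 fold change 3.33, adjusted p = 6.85e-05, edgeR). In lean tumors its log2 difference of -0.83 had an adjusted p of 0.0891, and the interaction was 4.16 (adjusted p = 0.000192). Socs3, an inhibitor induced by Stat3, had an interaction of 1.78 (adjusted p = 0.00204, edgeR). Of 9 partners and cofactors, 5 had a called interaction, all positive, where 10.1% of all genes had a positive one. Lowest in p were Batf2 at 6.17 (adjusted p = 2.99e-05), a myeloid partner of Irf1, and Nmi at 2.08 (adjusted p = 3.19e-05, edgeR), an interferon-induced protein that binds Stat factors.

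Apart from Ifng in lean tumors before therapy, the ligands themselves were nearly silent in these libraries. Of 21 interferon genes, 14 had no read in any tumor and only Ifnz had a read in every tumor. Ifng had 83, 176, 65 and 147 reads in the lean tumors before therapy. In the other 3 groups it had 4 reads in 1 tumor each (lean tumor 1 and obese tumor 1 after ETS, obese tumor 2 before therapy) and 0 in the other tumors, where a count of 0 leaves room for up to 3 reads. So all 4 lean tumors before therapy lay above all 12 others for Ifng, which was not tested because of these zeros. Ifnb1 had 4 reads in a lean tumor before therapy and 3 in an obese tumor after ETS, and Ifna5, Ifna13, Ifnab and Ifne had at most 2 reads in any tumor. For the type I ligands other than Ifnz, RNA was therefore not detectable at this depth in most tumors. Ifnz, a type I interferon at a mean of 0.0314 to 0.101 CPM over the groups, was called higher after ETS in lean tumors (log2 fold change 1.54, adjusted p = 0.0147, edgeR) on a total of 8 reads before therapy and 21 after.

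Markers of immune and other host cells also differed between the groups, but not all in the way of the members. For 8 T cell markers the summed CPM was 29.2 to 50.1 in the lean tumors before therapy, from 1.36 to 3.60 after ETS, from 3.41 to 4.15 in obese tumors before therapy and from 1.69 to 4.64 after ETS. For 8 NK cell markers the ranges were 31.4 to 57.1, 0.304 to 2.42, 0.300 to 0.937 and 1.03 to 5.52 CPM in the same order. Cd3e, Ncr1, Klrd1 and Ly6g had no read in obese tumors before therapy. Cd2 had none in lean tumors after ETS, and Siglech of the dendritic cell markers and Ly6g of the neutrophil markers were also at 0 in that group. The T and NK cell markers and Ifng were thus high in the lean tumors before therapy, the group in which every member had its highest mean. In that group all tumors lay above the other 12 for Irf1, Irf8, Socs1, Stat2, Irf9, Ifnar1 and Ifnar2, but not for Irf7 and Ifngr1.

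The 12 macrophage and monocyte markers summed to between 434 and 1391 CPM in lean tumors before therapy and 51.3 and 426 after ETS. In obese tumors they summed to between 44.3 and 263 CPM before therapy and 360 and 1091 after ETS. Of the 11 that were tested, 8 were lower in lean tumors after ETS, 7 were higher in obese tumors and 10 had a called interaction, all positive. Among all tested genes 22.8% were lower in lean tumors, 21.2% were higher in obese tumors and 10.1% had a called positive interaction. Dendritic cell markers summed to 28.3 to 49.1 CPM in lean tumors before therapy and 6.04 to 12.01 in the other groups. Of 6 fibroblast markers, 3 were lower in lean and 6 higher in obese tumors after ETS. Of 5 endothelial markers 1 was lower in lean tumors, close to the 22.8% of all genes, and 4 were higher in obese tumors. The 6 B cell markers summed to at most 5.97 CPM in any tumor. Neutrophil markers ranged from 0.350 to 30.1 CPM and adipocyte markers from 7.66 to 253 CPM. Mean sums of fibroblast, endothelial and adipocyte markers were highest in obese tumors after ETS, at 1307, 128 and 134 CPM. In lean tumors before therapy these sums were 686, 111 and 16.7 CPM. The part of these cells in the values of the 9 genes was not tested.

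**Figure D4:**
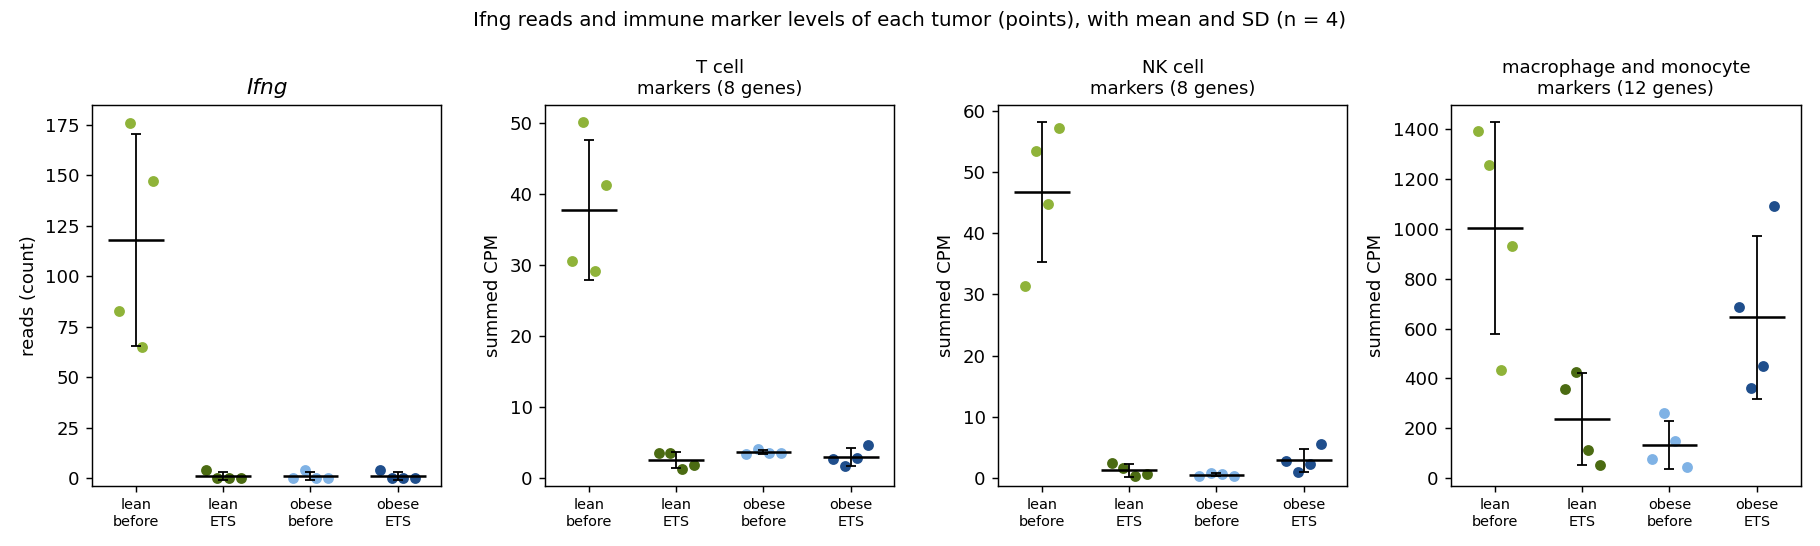
Reads of Ifng and the summed CPM of T cell, NK cell and macrophage and monocyte markers (y axes) in the 4 groups (x axis). Points are tumors, horizontal lines are means and bars are SD (n = 4 tumors). Ifng and the T and NK cell markers are high in lean tumors before therapy, and the macrophage markers are high there and, at 360 to 1091 CPM, in obese tumors after ETS.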

How the data were processed

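The authors prepared TruSeq stranded mRNA libraries from whole tumors, aligned paired-end reads to mm10 with HISAT2 2.1.0 and quantified them with StringTie 2.1.3b, versions as in the submitters' processing notes. The deposited table holds whole-number counts per gene, FPKM (not used here) and TPM values by the authors, 1 column each per tumor. Whether counting used strand is not given in the sources used here. Groups and replicate numbers came from the sample titles. That tumors came from separate mice is not stated in the labels, so p-values measure the spread between these tumors.

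Genes lacking reads in at least 1 tumor (29568) were dropped, as in the study's methods. The other 16209 were scaled by TMM and tested by edgeR 4.0.16 (R 4.3.3) in a quasi-likelihood fit with a mean per group. The study's own exact test was an alternative, as were DESeq2 1.42.0 and limma 3.58.1. Standard errors came from the F statistic, and 95% intervals from it with the t distribution. log2 CPM used a prior count of 2, and log2(TPM + 1) a pseudocount of 1. The test was tested on simulated data with a spread shared by all genes and known changes only in lean tumors after ETS. The ETS effect in obese tumors and the comparison of hosts before therapy held no known change there. No pair of tumors within a group agreed within sampling noise (chi-square per degree of freedom at least 25.6).

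Members and lists were chosen with earlier results of these data known. All 9 members are named. Of each other list, the 2 genes with the lowest interaction p and every ligand with reads are named. The result of 1 gene of these lists is not reported here. The likeness rule names 3 genes per member. Coordinates come from RefSeq for GRCm38.p6 (mm10), which held 45679 of the 45777 gene IDs, overlaps and strands from GENCODE for the same build, and promoter sequences from RefSeq.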

Additional observations from a re-analysis of the deposited data

Results flagged for a closer look

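The ETS effect differed between obese and lean tumors, by the interaction test, in 8 of the 9 genes. The differences, obese minus lean on the log2 scale, were 0.77 for Ifnar2, 0.80 for Ifngr1, 2.76 for Stat2, 1.97 for Irf9, 5.56 for Irf7, 3.81 for Irf1, 5.49 for Irf8 and 4.97 for Socs1. Ifng reads and T and NK cell marker levels were high in lean tumors before therapy, and macrophage marker levels were also high in obese tumors after ETS, and their part in these differences was not tested.

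In 2 of the 36 sets of 4 tumors, 1 tumor stood far from the other 3 by Dixon's criterion, and chance alone gives about 1 in 20. Obese tumor 4 before therapy had 33.0 CPM of Ifnar2, against 28.1 to 28.7 in the other tumors of its group. Lean tumor 3 after ETS had 29.2 CPM of Irf9, against 32.8 to 32.9 in the others.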

How the results depend on the processing

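Of 1152 recomputed gene values, 1113 kept their direction and their side of the threshold, 24 kept the direction but lost the call, 2 gained it and 13 changed sign. These values include fits that left out a tumor of neither group compared, where the estimates moved little. With a tumor left out, the number of members called stayed at 9 for ETS in lean tumors, 8 for the difference of the effects and 8 for obese against lean tumors before therapy. It ranged from 5 to 6 for ETS in obese tumors and from 0 to 1 for obese against lean tumors after ETS. That last number was 0 without a filter on low counts, with limma-voom, with the exact test on counts plus 1 and with only the groups compared in the fit. Over these 4 settings the adjusted p of Ifngr1 ranged from 0.0512 to 0.131. Only the fits of 2 groups or the exact test called Ifngr1 before therapy (adjusted p = 0.0411 and 0.0324).

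The changes of sign touched values that were not called. With limma on log2(TPM + 1), Ifngr1 in obese tumors was at -0.024, and Ifnar1 and Ifnar2 after ETS (obese minus lean) were at 0.083 and 0.13. With a pseudocount of 0.1 the same values were -0.026, 0.087 and 0.14. With a tumor left out, Ifnar2 after ETS was at 0.0061 without lean tumor 1, 0.028 without lean tumor 4, 0.044 without obese tumor 2 and 0.055 without obese tumor 3. Over all tumors left out it lay between -0.094 and 0.055. Socs1 after ETS was at -0.035 without obese tumor 4 (all tumors left out: -0.035 to 0.12), Ifngr1 in obese tumors at -0.015 without obese tumor 4 after ETS (-0.015 to 0.20), and Ifnar1 in obese tumors at 0.012 without obese tumor 2 before therapy (-0.11 to 0.012). The rise of Ifnar2 in obese tumors lost its call with the exact test, without a filter on low counts, with only the groups compared in the fit and with TPM (adjusted p from 0.0533 to 0.121). That of Stat2 lost it with log2(TPM + 1) (adjusted p = 0.059). The cause was not tested.

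With log2(TPM + 1) the median log2 fold change of all genes was -0.28 in lean tumors, against -0.015 with TMM. For the difference of the effects it was 0.16 against -0.052, and for obese against lean tumors after ETS 0.10 against 0.0016. Relative to these TPM medians all 9 members were lower after ETS in lean tumors (-3.57 to -0.34), and all 9 differences were positive (0.41 to 5.14). A pseudocount of 1 brought the rise of Socs1 in obese tumors to 0.85 and that of Irf7 to 3.07. The exact test and the fits of only the groups compared give no value for the difference of the effects. For obese against lean tumors after ETS the calls over all genes numbered 904, against 450 without a filter, 2078 with DESeq2, 1683 with the block and 66 with only the groups compared.

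With the replicate number as a block, 9, 6, 8, 8 and 1 members were called in the 5 comparisons, as without it. The labels give no meaning to the number. Of 24 pairs of tumors with the same number, 11 had deviations correlated over 0.1 (-0.11 to 0.45). The median correlation was 0.073 for pairs with the same number and -0.040 for pairs with different numbers. Over all genes the block gave more calls, for ETS in lean tumors 7754 against 7099. What the tumors with the same number share was not tested. Depth limits the values of Socs1 in obese tumors before therapy and of the ligands.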
